A study of Homo sapiens with 10 samples.

Results

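Non-targeting control guides are the members of an sgRNA library whose spacers were designed to match no site in the human genome. In the table of raw read counts, 989 of the 55849 sgRNAs carry a name that starts with NonTargetingControl, and all 989 were taken. They are 1.77% of the listed sgRNAs. Each has a name of its own, has no target gene and therefore no genomic position, and was counted in all 10 libraries. Members were not chosen by any measured value.

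Cas9 loaded with such a guide should find no site to cut, so the cell keeps all its genes and takes no double-strand break. In a pooled knockout screen these guides serve as the reference for growth without a knockout, and their scatter shows how far a guide can move when no gene is lost. They differ from guides against genes a cell does not use, because those still cut the DNA, and a cut by itself can slow growth. Guides against olfactory receptor genes, which are silent in most tissues, stand for the latter kind. Guides against cytosolic ribosomal protein genes stand for genes that dividing cells need.

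The screen used 22Rv1, a human prostate carcinoma cell line, in a parental arm and in an arm that overexpressed NMYC, the protein of the MYCN oncogene. Both arms carried the same genome-wide lentiviral knockout library, taken up at a multiplicity of infection of 0.3 and selected with puromycin. The labels name 65000 sgRNAs at 300-fold coverage, where the counts list 55849. For both arms they give 12 generations, passages every 72 h, 20000000 cells per passage and 25000000 cells at T0. Each arm gave 1 library at T0, right after selection, and 2 libraries each at T6 and T12, from duplicate cultures that were split off after selection. The labels give T6 and T12 no unit, and they speak of T0 replicates, of which 1 library per arm was analysed here. Both cultures of an arm therefore come from 1 infection. The sources used here do not give what drives NMYC or whether its line is a single clone. Library totals ran from 8783512 to 18398571 counts. Counts are reads of PCR products without molecular identifiers, so intervals here cover counting error only.

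The control guides took a smaller share of the counts at T0 than later, in both arms. Parental cells had 1.59% of their T0 counts on these guides, 1.76% and 1.74% at T6, and 1.70% and 1.71% at T12. The NMYC arm had 1.66% at T0, 1.83% and 1.79% at T6, and 1.85% at T12 in both cultures. All 4 later libraries of each arm lay above the T0 library of that arm. With so many counts the exact 95% binomial interval of the parental T0 share ran only from 1.59% to 1.60%, and that of the NMYC T0 share from 1.65% to 1.67%.

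Set against the targeting sgRNAs of the same library, the mean count per control guide told the same order without dividing by T0. Its ratio to the mean count of a targeting sgRNA began at 0.898 in parental cells and was 0.987 ± 0.00943 by T6 and 0.962 ± 0.00619 by T12 (SD, n = 2 cultures). For NMYC cells the ratio was 0.937 at T0, 1.02 ± 0.0156 at T6 and 1.05 ± 0.00198 at T12. A control guide was thus read less often than a targeting sgRNA on average at T0 in both arms and in every later parental library, and more often in all 4 later NMYC libraries. Each step from T0 was larger than the SD between cultures. T0 has 1 library per arm, however, and its own error enters both cultures alike and is not in that SD.

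Medians were likewise lowest against targeting sgRNAs at T0. The median control guide had 69 counts at parental T0 against 85 for targeting sgRNAs, then 161 against 169 and 48 against 50 at T6, and 102 against 106 and 103 against 114 at T12. In NMYC cells it had 101 against 114 at T0, 192 against 187 and 122 against 117 at T6, and 146 against 131 and 102 against 82 at T12. The control median was below the targeting median in all 5 parental libraries and at NMYC T0, and above it in the later NMYC libraries.

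Following each guide from T0 gave a small shift upward relative to targeting sgRNAs inside a very wide scatter. For the 934 control guides and 52106 targeting sgRNAs with a mean of at least 20 counts, changes were taken as log2(CPM + 1) against the T0 library of the arm, with CPM, the count scaled to library size, taken on TMM-adjusted sizes. The median change of control guides minus that of targeting sgRNAs was 0.19 and 0.12 at parental T6, and 0.05 and 0.23 at parental T12. At NMYC T6 it was 0.07 and 0.15, and at NMYC T12 it was 0.16 and 0.21. Group means were 0.15 ± 0.0478 and 0.14 ± 0.127 in parental cells at T6 and T12, and 0.11 ± 0.0560 and 0.18 ± 0.0349 in NMYC cells (SD, n = 2). All 8 values were above 0, and at parental T12 the mean barely passed its SD. With a pseudocount of 5 CPM the means were 0.0734 and 0.0475 in parental cells and 0.0614 and 0.0797 in NMYC cells, less than these by over 1.5 times. Means of the changes, less open to the exact middle of the distribution, stood 0.18 and 0.16 above targeting at parental T6, 0.14 and 0.15 at parental T12, 0.15 and 0.15 at NMYC T6, and 0.22 and 0.25 at NMYC T12. Between 50.7% and 54.2% of control guides changed by more than the targeting median. As a score over the chosen guides, the shift was given no p.

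Olfactory receptor guides differed from the control guides in level and, in the NMYC arm, in shift. The 1080 such guides, against 366 genes, had a mean count relative to targeting sgRNAs of 1.05 at parental T0, 1.21 ± 0.106 at T6 and 1.18 ± 0.0253 at T12, and of 1.19, 1.15 ± 0.0240 and 1.22 ± 0.0231 in NMYC cells (SD, n = 2). They lay above the control guides in all 10 libraries. Their median shift from T0 minus targeting was 0.05 ± 0.150 and 0.08 ± 0.0610 in parental cells at T6 and T12, and the cultures of the 2 classes overlapped. It was -0.10 ± 0.0714 at NMYC T6, where both cultures lay below 0 while both control values lay above, and 0.04 ± 0.121 at NMYC T12. Ribosomal protein guides, 227 against 78 genes, had shifts of -0.14 ± 0.251 and -0.17 ± 0.00999 in parental cells and -0.20 ± 0.0960 and -0.41 ± 0.116 in NMYC cells. At T12 all 4 ribosomal values lay below 0 and all 4 control values above. None of these differences between classes was tested, since all guides of a library share its infection, passage and PCR.

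Counts of the control guides were spread very unevenly, and most so at parental T0, the deepest library with 18398571 counts. There the 10th and 90th percentiles were 1 and 952 counts, and 268 guides (27.1%) had fewer than 10 counts, 85 of them 0. The parental T6 cultures differed from each other, with 73 guides (7.38%) under 10 counts in replicate 1 and 250 (25.3%) in replicate 2, whose library was the shallowest of all. At parental T12 the cultures had 251 and 155 guides under 10. NMYC cells had 149 at T0, 82 and 130 at T6, then 179 and 182 at T12. The share of targeting sgRNAs under 10 counts was close to that of the control guides in each library, at 24.9% in the parental T0 library and 8.11% and 25.3% at parental T6. For a guide with 0 counts the level is bounded only by the 3 counts that such a result allows.

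The Gini coefficient, 0 where all guides are equal and 1 where a single one holds everything, was 0.724 at parental T0, then 0.498 and 0.705 by T6 and 0.658 and 0.648 by T12. For NMYC libraries it was 0.682, then 0.525 and 0.526, then 0.589 and 0.661. Targeting sgRNAs had 0.710 and 0.669 in the T0 libraries and 0.502 to 0.701 in the later ones, so the control guides were as uneven as guides with a target. The 10 most abundant control guides held between 4.69% and 10.4% of all control counts of a library.

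Which guides were abundant changed from library to library. The 10 lists of the 10 most abundant control guides held 74 different guides, 60 of them in a single list and 9 in a pair of lists. Only 5 guides were in more than 3 lists, namely NonTargetingControlGuideForHuman_0404 and NonTargetingControlGuideForHuman_0630 with 5 each and NonTargetingControlGuideForHuman_0535, NonTargetingControlGuideForHuman_0647 and NonTargetingControlGuideForHuman_0944 with 4 each. No matching count for targeting sgRNAs is given here, so whether the change of leaders is particular to control guides was not tested. Spearman correlations of control and targeting guides differed by between -0.0446 and 0.0530 over the 45 pairs of libraries. At parental T0 the top guide was NonTargetingControlGuideForHuman_0154, with 3591 counts there, 203 and 100 at parental T6, 486 and 391 at parental T12, 340 at NMYC T0, 559 and 120 at NMYC T6, and 603 and 616 at NMYC T12. That count stands apart from the others of the guide. At NMYC T0 the top guide was NonTargetingControlGuideForHuman_0252, with 3276 counts there, while parental cells had 427, then 507 and 1229, then 160 and 832. It had 466 and 381 at NMYC T6, and 837 and 1803 at NMYC T12.

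Single cultures had such leaders too, named here after their values were seen. NonTargetingControlGuideForHuman_0366 had 3985 counts in replicate 2 of NMYC T12 and 696 in replicate 1, with 533 at NMYC T0 and 267 and 605 at NMYC T6. Its parental counts were 1940 at T0, 509 and 126 at T6, then 341 and 314 at T12. NonTargetingControlGuideForHuman_0796 led replicate 2 of parental T6 with 2817 counts against 325 in replicate 1, and had 971 at parental T0, 713 and 65 at parental T12, 164 at NMYC T0, 287 and 346 at NMYC T6, and 250 and 2564 at NMYC T12. In both guides a leading count was not shared by the sister culture of the same arm and time.

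A few control guides were high everywhere. Of the 989, 65 (6.57%) had at least 10 CPM in all 10 libraries, against 5.56% of targeting sgRNAs, while 589 (59.6%) were under 1 CPM in at least 1 library, against 61.2%. These bounds of 1 and 10 CPM were chosen after the data were seen. By mean CPM the highest were NonTargetingControlGuideForHuman_0404 (104 CPM), NonTargetingControlGuideForHuman_0630 (92.1), NonTargetingControlGuideForHuman_0588 (89.5), NonTargetingControlGuideForHuman_0647 (84.8) and NonTargetingControlGuideForHuman_0651 (82.7). NonTargetingControlGuideForHuman_0404 had 820 counts, then 516 and 667, then 2466 and 2289 in parental cells, and in NMYC cells 1507, then 971 and 1092, then 2083 and 2186. NonTargetingControlGuideForHuman_0630 had 903, then 1427 and 636, then 2210 and 3356 in parental cells, and 770, then 1746 and 783, then 893 and 817 in NMYC cells. Both were higher at parental T12 than at T0 in each culture, by 1.30 and 1.38 on the fitted log2 scale (edgeR adjusted p = 0.618 and 0.613).

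The other 3 of the highest moved less evenly. NonTargetingControlGuideForHuman_0588 had 1314, then 738 and 1125, then 2137 and 1445 in parental cells, and 1346, then 985 and 630, then 1485 and 872 in NMYC cells. NonTargetingControlGuideForHuman_0647 had 1921, then 413 and 1164, then 806 and 2309 in parental cells, and 547, then 1563 and 803, then 1018 and 904 in NMYC cells. NonTargetingControlGuideForHuman_0651 had 3141, then 421 and 867, then 1419 and 1506 in parental cells, and 1552, then 792 and 476, then 655 and 229 in NMYC cells. NonTargetingControlGuideForHuman_0651 was lower at T12 than at T0 in both cultures of both arms (fitted log2 -1.34, adjusted p = 0.600, and -2.02, adjusted p = 0.758).

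Among the 732 control guides with a mean of at least 100 counts, the SD of log2(CPM + 1) over the 10 libraries had a median of 1.52, with 0.984 and 1.99 at the 10th and 90th percentiles. The median of 41205 targeting sgRNAs at that depth was also 1.52. The steadiest was NonTargetingControlGuideForHuman_0015, at an SD of 0.528, with 624 counts, then 730 and 244, then 244 and 557 in parental cells, and 820, then 577 and 613, then 739 and 510 in NMYC cells. Next came NonTargetingControlGuideForHuman_0797 (SD 0.533), NonTargetingControlGuideForHuman_0514 (0.587), NonTargetingControlGuideForHuman_0606 (0.596) and NonTargetingControlGuideForHuman_0913 (0.599). NonTargetingControlGuideForHuman_0797 had 252, then 454 and 146, then 823 and 671 parental counts, and 272, then 319 and 360, then 437 and 559 in NMYC cells. Even these steadiest guides had counts in single libraries that differed by over 3-fold, which includes differences in depth.

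At the other end was NonTargetingControlGuideForHuman_0569, with an SD of 2.59. It had 729 counts, then 528 and 0, then 425 and 0 in parental cells, and 1046, then 3 and 1, then 100 and 55 in NMYC cells. It was absent from replicate 2 at both parental times and well read in replicate 1. NonTargetingControlGuideForHuman_0800 (SD 2.34) had 1 parental count, then 80 and 13, then 322 and 4, and 479, then 118 and 28, then 869 and 1501 in NMYC cells. NonTargetingControlGuideForHuman_0146 (2.34), NonTargetingControlGuideForHuman_0649 (2.34) and NonTargetingControlGuideForHuman_0552 (2.32) completed the 5 most variable and are described with the arms below.

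The lowest levels among the guides kept for testing belonged to NonTargetingControlGuideForHuman_0814 (1.16 CPM), NonTargetingControlGuideForHuman_0773 (1.20), NonTargetingControlGuideForHuman_0447 (1.37), NonTargetingControlGuideForHuman_0711 (1.38) and NonTargetingControlGuideForHuman_0384 (1.42). Each owed most of its counts to a single library. Guides were kept by their mean count, which a single high library can raise enough to pass. That filter may have favoured this pattern among the lowest guides kept, which was not tested. NonTargetingControlGuideForHuman_0814 had 113 and NonTargetingControlGuideForHuman_0711 had 186 counts in replicate 1 of parental T6, NonTargetingControlGuideForHuman_0773 had 193 in replicate 1 of NMYC T6, NonTargetingControlGuideForHuman_0447 had 115 in replicate 1 of NMYC T12, and NonTargetingControlGuideForHuman_0384 had 127 in replicate 2 of parental T12. In the T0 libraries these 5 guides had between 0 and 30 counts.

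Control guides that were high at T0 were seldom lost from both T12 cultures. Of 390 with at least 10 CPM at parental T0, 15 (3.85%) were under 1 CPM in both T12 libraries and 62 (15.9%) in 1 of them, against 4.42% and 18.1% of targeting sgRNAs with the same start. In NMYC cells 21 of 435 (4.83%) were low in both and 44 (10.1%) in 1, against 3.94% and 14.2% of targeting sgRNAs. Losses seen in a single culture thus outnumbered losses seen in both. Of the guides high at T0, 2 in parental and 4 in NMYC cells were under 1 CPM in all 4 later libraries of the arm, against 182 of 23843 and 162 of 25693 targeting sgRNAs.

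The reverse also happened, for guides with no gene to lose. Of 299 control guides under 1 CPM at parental T0, 19 (6.35%) had at least 10 CPM in both T12 libraries and 102 (34.1%) in 1, against 8.86% and 32.9% of targeting sgRNAs. In NMYC cells 10 of 180 (5.56%) did so in both and 54 in 1, against 5.17% and 25.4%. Between the T0 libraries of the arms, 236 control guides (23.9%) were at 10 CPM or more in both and 122 (12.3%) under 1 CPM in both, against 26.6% and 10.2% of targeting sgRNAs. A further 23 (2.33%) were high in parental and low in NMYC cells and 60 (6.07%) the other way, against 3.06% and 7.03% of targeting sgRNAs.

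Any pair of libraries ordered the control guides about as they ordered the targeting ones. Over the 934 guides, Spearman correlations ran from 0.312 to 0.454 in the 4 pairs of replicate cultures, and from 0.286 to 0.439 where T0 was set against a later library of its arm (8 pairs). Arms compared at the same later time gave 0.293 to 0.493 (8 pairs). The T0 libraries of the arms had 0.361. In all 45 pairs, control and targeting correlations differed by between -0.0446 and 0.0530. These are descriptions over guides that share infection, depth and PCR.

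Control guides scattered as widely as targeting sgRNAs. The SD of the log2 difference between replicate cultures was 1.96 at parental T6 and 2.38 at parental T12, and 1.58 and 2.16 at NMYC T6 and T12. Between T0 and later libraries of an arm it ran from 1.82 to 2.55. The SD that counting alone would give the middle guide, which leaves out the noise of passage, sampling and PCR, lay between 0.160 and 0.328 in the 45 pairs. Between 20.02% and 40.04% of control guides differed by over 4-fold, relative to the median, between replicate cultures. Targeting sgRNAs had an SD of 1.45 to 2.63 over the 45 pairs and control guides 1.45 to 2.56. The control value was the smaller in 37 of the 45 pairs, with control minus targeting between -0.131 and 0.0497, and the pairs reuse the same 10 libraries.

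Each guide was then tested for change with edgeR's quasi-likelihood test, fitted on all 53040 sgRNAs kept and adjusted by the Benjamini-Hochberg method. No contrast called a control guide at an adjusted p under 0.05. In parental cells 0 of 934 passed from T0 to T12, where 0.0226% of all sgRNAs did, 0 from T0 to T6 (background 0.00189%) and 0 from T6 to T12 (background 0%). In NMYC cells 0 passed in these contrasts, against backgrounds of 0.0132%, 0% and 0%. The difference NMYC minus parental of T12 against T0 gave 0 (background 0%), and the arms set against each other gave 0 at T12 (background 0.00189%) and 0 at T6 (background 0%). With backgrounds this low, 0 among 934 is what the share over all sgRNAs would give too.

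At an unadjusted p under 0.05 the share of control guides was under that of all sgRNAs on the lower side in the contrasts that follow. On the higher side it was above in some and under in others. From T0 to T12 in parental cells 47 were lower (5.03%, background 5.92%) and 58 higher (6.21%, background 5.31%). In NMYC cells 34 were lower (3.64%, background 5.31%) and 16 higher (1.71%, background 1.48%). In the difference NMYC minus parental 46 were lower (4.93%, background 6.17%) and 29 higher (3.10%, background 3.78%). Between the arms at T12, 35 were lower in NMYC cells (3.75%, background 5.74%) and 46 higher (4.93%, background 5.22%). The contrasts share T0 and T12 libraries, so they are not separate looks.

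From T0 to T6 in parental cells 36 control guides were lower (3.85%, background 4.45%) and 50 higher (5.35%, background 4.82%). From T6 to T12 there, 43 were lower (4.60%, background 4.32%) and 19 higher (2.03%, background 2.12%). In NMYC cells 24 were lower from T0 to T6 (2.57%, background 3.24%) and 4 higher (0.428%, background 0.452%). From T6 to T12 there, 18 were lower (1.93%, background 2.84%) and 18 higher (1.93%, background 1.57%). Between the arms at T6, 16 were lower in NMYC cells (1.71%, background 2.52%) and 8 higher (0.857%, background 0.899%). The lower share was under its background in 8 of the 9 contrasts and above it from T6 to T12 in parental cells, and none of these gaps was tested.

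With all libraries, both directions together held 11.2% of control guides and 11.2% of all sgRNAs from T0 to T12 in parental cells. In NMYC cells they held 5.35% and 6.79%. Single libraries moved these counts of both directions by over 1.5 times. The count over all sgRNAs moved the same way each time, so the swings were not particular to control guides. Leaving out either NMYC T6 library lowered the counts of T12 against T0 in both arms and of their difference. It also lowered those of NMYC T6 against T0, NMYC T12 against T6 and parental T6 against T0. Without parental T6 replicate 2, the counts of parental T6 against T0 and of parental T12 against T6 fell. Parental T12 against T6 also fell without NMYC T6 replicate 2. Without parental T12 replicate 2 it rose, as did the count between the arms at T12. Between the arms at T6 the count rose without parental T6 replicate 1. There it fell without parental T6 replicate 2 and without either NMYC T6 library. Several of these libraries are not part of the contrast whose count moved, since all libraries enter 1 fit.

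The median fitted log2 change of control guides was 0.79 from parental T0 to T12, against 0.56 for targeting sgRNAs, and 0.54 against 0.23 in NMYC cells. From T6 to T12 it was 0.01 against 0.07 and 0.09 against 0.11. Control minus targeting was thus -0.05 and -0.02 over the later interval, and the larger offsets lay between T0 and the later libraries. On log2(CPM + 1), the median changes from T0 at parental T12 were 0.124 for control and -0.0142 for targeting guides. At NMYC T12 they were 0.000189 and -0.184 (means of 2 cultures). The fitted medians from T0 stood higher in both classes, so they do not give the rise of a typical control guide.

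In parental cells the guides with the smallest p on the lower side were NonTargetingControlGuideForHuman_0967, NonTargetingControlGuideForHuman_0552, NonTargetingControlGuideForHuman_0987, NonTargetingControlGuideForHuman_0158 and NonTargetingControlGuideForHuman_0117. NonTargetingControlGuideForHuman_0967 began at 1576 parental counts and had 59 and 0 by T6 and 0 and 2 by T12. That is 118 CPM against 0.0621 ± 0.0878 (SD, n = 2), and the ratio of T0 to T12, from counts and library sizes summed over the cultures, was 1858 with an exact 95% counting interval from 513 to 15352 (edgeR adjusted p = 0.130). In NMYC cells the guide had 4 counts at T0, 11 and 79 at T6, then 0 and 0 at T12, so it was scarce there from the start. NonTargetingControlGuideForHuman_0552 had 2026 counts, then 132 and 3, then 1 and 11 in parental cells (fitted log2 -8.62, adjusted p = 0.133), and 256, then 69 and 184, then 8 and 7 in NMYC cells (-5.25, adjusted p = 0.577). It was low at T12 in all 4 cultures.

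The other 3 were less marked. NonTargetingControlGuideForHuman_0987 had 1673 counts, then 258 and 696, then 34 and 30 in parental cells (-5.94, adjusted p = 0.138). In NMYC cells it had 285, then 429 and 314, then 457 and 447. NonTargetingControlGuideForHuman_0158 had 2785, then 210 and 46, then 21 and 125 in parental cells (-5.51, adjusted p = 0.146), and 453, then 168 and 315, then 113 and 1315 in NMYC cells. NonTargetingControlGuideForHuman_0117 had 2344, then 55 and 126, then 11 and 48 in parental cells (-6.56, adjusted p = 0.175), and 184, then 334 and 223, then 38 and 383 in NMYC cells. In NMYC cells none of these 3 was lower than T0 in both T12 cultures. For all 5 the parental T0 count was the highest of the 10 libraries.

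On the higher side in parental cells stood NonTargetingControlGuideForHuman_0760, NonTargetingControlGuideForHuman_0652, NonTargetingControlGuideForHuman_0851, NonTargetingControlGuideForHuman_0576 and NonTargetingControlGuideForHuman_0684, all with few T0 counts. NonTargetingControlGuideForHuman_0760 had 5 counts at T0, 370 and 555 at T6, then 192 and 1355 at T12 (fitted log2 6.98, adjusted p = 0.281). NonTargetingControlGuideForHuman_0652 had 15, then 529 and 133, then 78 and 1891 (5.76, adjusted p = 0.291), and NonTargetingControlGuideForHuman_0684 had 22, then 369 and 216, then 66 and 1746 (5.09, adjusted p = 0.392). In these 3 guides most of the T12 counts came from replicate 2.

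NonTargetingControlGuideForHuman_0851 had 0 counts, then 22 and 13, then 1 and 976 in parental cells, so a single culture carried it. Taking 3 counts as the bound at T0, its T12 mean of 30.3 ± 42.8 CPM (SD, n = 2) was at least 135-fold higher (adjusted p = 0.358). NonTargetingControlGuideForHuman_0576 had 1 count at T0, 52 and 27 at T6, then 366 and 780 at T12, a ratio of 486 from summed counts with a counting interval from 87.1 to 19218 (adjusted p = 0.377). Its NMYC counts were 85 at T0, 4 and 139 at T6, then 10 and 973 at T12.

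How far these large values depended on the parental T0 library differed between guides. With the T0 libraries of both arms as 1 baseline, the fitted log2 change was 0.01 for NonTargetingControlGuideForHuman_0760, 0.67 for NonTargetingControlGuideForHuman_0652, 1.04 for NonTargetingControlGuideForHuman_0684, 5.89 for NonTargetingControlGuideForHuman_0851 and 3.43 for NonTargetingControlGuideForHuman_0576 (edgeR adjusted p from 0.414 to 0.999). On the lower side it was between -7.80 and -4.73 for NonTargetingControlGuideForHuman_0552, NonTargetingControlGuideForHuman_0987, NonTargetingControlGuideForHuman_0158 and NonTargetingControlGuideForHuman_0117, and that of NonTargetingControlGuideForHuman_0967 is not given here. The guides of the higher side had 1229, 978, 684, 13 and 85 counts at NMYC T0, in the order just given. Pooling with a T0 library where a guide is abundant shrinks its rise by construction, so this baseline was no test of these changes. Over all alternatives the adjusted p of these 10 guides ran from 1.68e-04, by DESeq2, to 0.999. Which guide had the smallest value is not given here, and NonTargetingControlGuideForHuman_0851 had 0 counts at parental T0.

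In NMYC cells the smallest p on the lower side went to NonTargetingControlGuideForHuman_0634, NonTargetingControlGuideForHuman_0052, NonTargetingControlGuideForHuman_0146, NonTargetingControlGuideForHuman_0649 and NonTargetingControlGuideForHuman_0658. NonTargetingControlGuideForHuman_0634 had 1091 counts at NMYC T0, 321 and 85 at T6, then 9 and 2 at T12 (fitted log2 -7.81, adjusted p = 0.178). Its parental counts were 234 at T0, 300 and 140 at T6, then 1090 and 233 at T12. This guide was low at NMYC T12 alone, and it also had the smallest p among control guides between the arms at T12 (-6.82, adjusted p = 0.214). NonTargetingControlGuideForHuman_0052 had 1288 counts at NMYC T0 and then 5 and 1 at T6 and 0 and 2 at T12, a ratio of T0 to T12 of 1457, computed likewise from summed counts, with a counting interval from 403 to 12047 (adjusted p = 0.184). Parental cells had 27 at T0, 438 and 57 at T6, then 13 and 10 at T12.

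For NonTargetingControlGuideForHuman_0146 the NMYC counts were 544, then 24 and 616, then 9 and 2 (-6.81, adjusted p = 0.250), and the parental ones 365, then 167 and 759, then 37 and 375. NonTargetingControlGuideForHuman_0649 had 996, then 505 and 49, then 15 and 44 in NMYC cells (-5.21, adjusted p = 0.271), and 2248, then 344 and 494, then 315 and 9 in parental cells (-4.00, adjusted p = 0.352). NonTargetingControlGuideForHuman_0658 had 1953, then 740 and 216, then 75 and 95 in NMYC cells (-4.69, adjusted p = 0.386), and 34, then 451 and 173, then 1042 and 451 in parental cells. NonTargetingControlGuideForHuman_0649 was lower at T12 than at T0 in both arms, and NonTargetingControlGuideForHuman_0658 in NMYC cells alone.

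On the higher side in NMYC cells were NonTargetingControlGuideForHuman_0882, NonTargetingControlGuideForHuman_0381, NonTargetingControlGuideForHuman_0861, NonTargetingControlGuideForHuman_0975 and NonTargetingControlGuideForHuman_0459. NonTargetingControlGuideForHuman_0882 had 0 counts at T0, 38 and 1 at T6, then 131 and 805 at T12, at least 143-fold higher than T0 at a T12 mean of 33.3 ± 35.0 CPM (SD, n = 2; adjusted p = 0.577). NonTargetingControlGuideForHuman_0381 had 0 at T0, 771 and 28 at T6, then 0 and 520 at T12, at least 80.5-fold higher on a mean that replicate 2 alone carries (adjusted p = 0.577). NonTargetingControlGuideForHuman_0861 had 6, then 191 and 18, then 307 and 797 (6.35, adjusted p = 0.613). Its parental counts ran the same way, from 21 at T0 to 251 and 239 at T6 and 869 and 865 at T12 (5.12, adjusted p = 0.435).

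NonTargetingControlGuideForHuman_0975 also stood higher at T12 in both arms. It had 93, then 531 and 195, then 736 and 3892 in NMYC cells (4.51, adjusted p = 0.619) and 16, then 57 and 5, then 174 and 251 in parental cells (3.48, adjusted p = 0.455). NonTargetingControlGuideForHuman_0459 had 7, then 419 and 390, then 172 and 1155 in NMYC cells (6.42, adjusted p = 0.631) and 27, then 24 and 493, then 12 and 84 in parental cells. All 5 had fewer than 100 counts at NMYC T0.

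The difference NMYC minus parental is the screen's contrast for synthetic dosage lethality, a gene loss harmful only when MYCN is overexpressed. A guide without a target has no such gene, and the fitted log2 differences of single control guides were nonetheless large. In the main edgeR fit no control guide had an adjusted p under 0.337, while the smallest by DESeq2 was 3.21e-07. Which of the guides named below had that DESeq2 value is not given here. On the lower side the smallest p were those of NonTargetingControlGuideForHuman_0760 (-10.0, adjusted p = 0.337), NonTargetingControlGuideForHuman_0658 (-8.91, adjusted p = 0.360) and NonTargetingControlGuideForHuman_0073 (-11.7, adjusted p = 0.374). NonTargetingControlGuideForHuman_0073 had 4 counts at parental T0 and 48 and 813 at T12, and 1629 at NMYC T0 and 94 and 8 at T12. At T6 it had 60 and 48 in parental and 203 and 16 in NMYC cells.

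All 3 were scarce at parental T0, with 5, 34 and 4 counts, and abundant at NMYC T0, with 1229, 1953 and 1629. On the higher side stood NonTargetingControlGuideForHuman_0462 (8.38, adjusted p = 0.395), NonTargetingControlGuideForHuman_0381 (13.7, adjusted p = 0.402; its value rests on 0 counts at NMYC T0 and depends on the prior count) and NonTargetingControlGuideForHuman_0586 (10.3, adjusted p = 0.403). NonTargetingControlGuideForHuman_0462 had 1752, then 241 and 62, then 20 and 40 in parental cells, and 104, then 230 and 329, then 169 and 928 in NMYC cells. NonTargetingControlGuideForHuman_0586 had 1623, then 258 and 3, then 1 and 18 in parental cells, and 11, then 53 and 241, then 1 and 153 in NMYC cells. Their T0 counts ran the opposite way, high in parental and low in NMYC cells.

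The fitted log2 difference at T12 itself was -2.04 for NonTargetingControlGuideForHuman_0760, -3.02 for NonTargetingControlGuideForHuman_0658 and -2.99 for NonTargetingControlGuideForHuman_0073 (adjusted p = 0.587, 0.401 and 0.533). For NonTargetingControlGuideForHuman_0462, NonTargetingControlGuideForHuman_0381 and NonTargetingControlGuideForHuman_0586 it was 4.36, 3.07 and 3.21 (adjusted p = 0.314, 0.607 and 0.539). The guides were chosen for a difference that includes the T0 libraries, so the smaller values here follow from that choice.

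DESeq2 is a count test with another estimate of the spread. It called control guides in every contrast, in some above and in others below the rate of all sgRNAs, and these gaps were not tested. At an adjusted p under 0.05 it gave 35 lower (3.75%, background 3.76%) and 79 higher (8.46%, background 7.45%) from parental T0 to T12. From NMYC T0 to T12 it gave 9 lower (0.964%, background 1.66%) and 14 higher (1.499%, background 1.29%). In the difference NMYC minus parental it gave 27 (2.89%, background 3.86%) and 16 (1.71%, background 2.66%), and between the arms at T12 27 (2.89%, background 4.30%) and 31 (3.32%, background 4.08%). The other contrasts gave 68 from T0 to T6 (7.28%, background 6.99%) and 20 from T6 to T12 (2.14%, background 2.51%) in parental cells. In NMYC cells they gave 2 (0.214%, background 0.172%) and 5 (0.535%, background 0.897%), and between the arms at T6 2 (0.214%, background 0.341%). Of the 114 control guides it called from parental T0 to T12, 86 had an unadjusted edgeR p under 0.05 and all 114 the same sign. Both methods used the same counts and contrast, so this agreement is no separate support for the calls. The matching share among all sgRNAs that DESeq2 called is not given here. Control guides that DESeq2 gave no adjusted p, 109 of 934 from parental T0 to T6, were counted as not called.

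Control guides NonTargetingControlGuideForHuman_0052 and NonTargetingControlGuideForHuman_0634 were called by edgeR in fits with other libraries. In the NMYC libraries alone, from T0 to T12, NonTargetingControlGuideForHuman_0052 passed at an adjusted p of 0.0101 and NonTargetingControlGuideForHuman_0634 at 0.0386, where 0.545% of all sgRNAs passed. Without replicate 2 of parental T12 NonTargetingControlGuideForHuman_0634 passed at 0.0494, where 0.149% of all did. Over the alternatives the adjusted p of the 10 guides named for this contrast ran from 4.18e-09, by DESeq2, to 1.00. Which guide had the smallest value is not given here. NonTargetingControlGuideForHuman_0882 and NonTargetingControlGuideForHuman_0381, among these 10, had 0 counts at NMYC T0.

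Used as the reference for library size, the control guides gave other factors than all sgRNAs did. The median-of-ratios factor from control guides divided by that from all kept sgRNAs was 0.858 at parental T0, then 1.02 and 0.953 by T6 and 0.942 and 0.892 by T12. In NMYC cells it was 0.925 at T0, 1.02 and 1.01 at T6, and 1.10 in both T12 libraries. Scaling by control guides would thus raise every value of the T0 libraries and lower those of NMYC T12 relative to the usual factors. With these factors 0 control guides were called in each of the 9 contrasts.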

How the data were processed

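Per the labels, genomic DNA was sequenced as amplicons of the sgRNA cassette. Values are raw read counts per sgRNA, in 1 table that the authors deposited, and the submitters' processing notes name MAGeCK without a version. No source used here gives the trimming, the mismatches allowed or the sgRNA reference. Spacer sequences were not used here. All columns matched a sample by name, leaving 0 unmapped. Totals ran from 8783512 to 18398571 counts, which limits counting error only.

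Single sgRNAs with a mean of at least 20 counts were tested across the whole table by the quasi-likelihood test of edgeR 4.0.16 (R 4.3.3), with 6 group means, TMM factors and 4 residual degrees of freedom, and called at a Benjamini-Hochberg adjusted p under 0.05. All libraries entered 1 fit because each arm has 1 T0 library, taken to vary like the duplicated groups. The p-values measure spread after a single infection per arm. The fit was tested on simulated counts with 1 common spread for all sgRNAs and known changes in NMYC T12 alone. It recovered these changes where the spread was low and called none at the common spread of these libraries. An adjusted count of 0 thus says little of single guides. In the real data the spread differs between guides, and the fit called 12 sgRNAs from T0 to T12 in parental and 7 in NMYC cells. The simulation therefore does not set how large a change could be missed. Alternatives used DESeq2 1.42.0, other factors, filters and baselines, a replicate block, each arm alone and leaving out each T6 or T12 library.

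The log2 values use a pseudocount of 1 CPM. Ratios of few counts carry exact 95% conditional binomial intervals, and 0 counts were bounded by 3 counts in that library.

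Members, comparison classes and rules were chosen with earlier results of these data known. Guides were named by rule: the 5 smallest p per direction from T0 to T12 in each arm, the 3 smallest in the difference, the 5 highest and lowest mean CPM, and the 5 smallest and largest SD at a mean of at least 100 counts. Others were named after their values were seen.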

Additional observations from a re-analysis of the deposited data

How the results depend on the processing

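With every edgeR setting except those next named, 0 control guides were called in each of the 9 contrasts, and the replicate block (culture number within each arm) also gave 0 in each. DESeq2 called 114 from T0 to T12, 68 from T0 to T6 and 20 from T6 to T12 in parental cells, 23, 2 and 5 in NMYC cells, 43 in the difference, and 58 and 2 between the arms at T12 and T6. NMYC libraries alone gave 2 from T0 to T12 (289 of all sgRNAs), and leaving out 1 library gave 0 to 1 (79 of all sgRNAs without parental T12 replicate 2). DESeq2's 5 from NMYC T6 to T12 were NonTargetingControlGuideForHuman_0243, NonTargetingControlGuideForHuman_0634, NonTargetingControlGuideForHuman_0146, NonTargetingControlGuideForHuman_0769 and NonTargetingControlGuideForHuman_0513, its 2 from T0 to T6 NonTargetingControlGuideForHuman_0381 and NonTargetingControlGuideForHuman_0052, and its 2 between the arms at T6 NonTargetingControlGuideForHuman_0052 and NonTargetingControlGuideForHuman_0318. Deviations of same-numbered cultures at T6 and T12 correlated over control guides at 0.0624 in parental and 0.0287 in NMYC cells. The labels speak of duplicate cultures carried through the passages. The block moved the unadjusted edgeR count of control guides from 105 to 70 in parental and from 50 to 38 in NMYC cells, T12 against T0, and that of all sgRNAs from 5954 to 4441 and from 3604 to 2951.

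The median shift stayed above 0 in all settings run. It was 0.0734 at parental T6 and 0.0797 at NMYC T12 with a pseudocount of 5 CPM, and 0.194 at NMYC T6 with both T0 libraries as baseline. The SD of changes fell to 1.61, 1.73, 1.29 and 1.54 (parental T6 and T12, NMYC T6 and T12) with that pseudocount. Against the mean of both T0 libraries the SD was 1.83 and 2.10 in parental cells and 1.68 at NMYC T6. Guides with 30 counts or more in each T0 library had 2.35 at parental T12 and 1.71 at NMYC T6, and without the filter 2.46 at parental T12. Leaving out 1 culture gave median shifts of 0.119 to 0.186, 0.0489 to 0.228, 0.0725 to 0.152 and 0.159 to 0.209, and SDs of 2.11 to 2.54, 2.49 to 2.55, 1.82 to 1.93 and 2.06 to 2.37, in the same order. Without the 1% most abundant sgRNAs the share of counts was 1.66% and 1.79% at parental T0 and T6 and 1.61% and 1.84% at NMYC T0 and T6, so T0 stayed below T6. NonTargetingControlGuideForHuman_0381, with 0 counts at NMYC T0, had a fitted change of 0 without replicate 2 of NMYC T12, 12.1 without replicate 1 and 1.44 with both T0 libraries as baseline, and none of the other guides named for the T12 contrasts changed direction. Those named for level or SD were not refitted. Depth limits guides near 0 counts, whose direction rests on single libraries.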
